A study of Mus musculus with 3 samples.

Results

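The m6A mark, a methyl group on adenosines inside mRNAs, is written in the nucleus by a complex of proteins. Mettl3 is its catalytic subunit and Mettl14 its RNA-binding partner. Wtap, Cbll1 (Hakai), Rbm15 and Rbm15b are regulatory subunits that hold the complex together or bring it to RNA. Zfp217 is a zinc finger protein of corepressor complexes that is linked to pluripotency in embryonic stem cells. Described here are the mRNAs of these 7 genes, as recovered with antibodies against Mettl3 and against Zfp217, which includes each protein's own mRNA. The members were every row of both deposited tables whose symbol was one of the 7: 8 of 9501 transcripts in the Mettl3 table and 10 of 8120 in the Zfp217 table, 12 different transcripts in all.

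All RNA came from untreated cells of CCE, a mouse embryonic stem cell line grown without feeders and with leukemia inhibitory factor. Nuclear RNA bound to Mettl3 (an antibody from Bethyl) or to Zfp217 (an antibody from Santa Cruz) was sequenced as RIP libraries, next to 1 input library that both comparisons shared. Each group was 1 library, so ratios describe these libraries, without a test or a replicate check. No control with an unspecific antibody is used here, and RNA held by the beads alone was not measured. A level is in FPKM, fragments scaled to transcript length and to library size, so levels of different genes can be set side by side. A higher FPKM in a RIP is a larger share of that library, and more binding of a transcript cannot be told apart from fewer other RNAs. Intervals in brackets are 95% intervals from estimated read numbers, and they cover counting error only, not the way reads were divided between transcripts of a gene.

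Each table was a selection. The lowest RIP level was 1 FPKM in both, and the lowest ratio over a non-zero input was 1.5, so a listed transcript is higher in the RIP by construction. Whether other criteria also kept transcripts out is not known, and a level given as passing these limits might still not have been listed. Hence what can be read from the tables is which transcripts are listed and how far above that limit they lie. Of 10 embryonic stem cell markers, 7 were listed in each table, among them Sox2, Nanog and Fgf4. None of the 4 primitive endoderm, 3 early mesoderm, 3 neuroectoderm or 4 fibroblast markers was listed in either, although a transcript that is not raised in a RIP would also be missing.

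Some of the genes are read through transcripts that differ in short stretches, and those sequences, from the GENCODE M21 transcripts of GRCm38, show what the tables can tell apart. Wtap-203 and Wtap-205 share their coding start and part after an exon. The last 15 shared bases are in lower case and the bases after the point where they part are in capitals. Wtap-203 is spliced on to the next exon and codes for 396 residues. Wtap-205 reads on into what is an intron of Wtap-203, and its coding sequence ends after 151 residues.
Wtap-203: gtttacgcctgatagCCAAACAGGCAAAAA
Wtap-205: gtttacgcctgatagGTAAACAAATCATAC

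Zfp217-201 and Zfp217-202 have the same coding length (1041 residues) and differ mainly in their first exons. Their first 30 bases are shown as an example of the stretches that can assign a read to one of them. Zfp217-201 has 176 bases of its own, against 161 in Zfp217-202, and shares 5509, or 96.9% of its length.
Zfp217-201: aggcggcgcggccgggggggagggcgcaac
Zfp217-202: accagtatgcccaggaggtgtttcgctgga

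The mRNAs of the writer complex also hold the motif that the complex itself methylates most often, GGACT in DNA letters (GGACU in RNA, searched on the sense strand only). The coding GGACT nearest the end of the coding sequence is given, with the motif in capitals, for the 3 subunits with the highest ratios in the Mettl3 RIP and for Wtap-203, the member with the most sites per kb in that table.
Mettl3-201, bases 1623 to 1652 of 2025: caaccagggcctGGACTgcgatgtgattgt
Cbll1-203, bases 406 to 435 of 3900: tgtgacaaatgtGGACTgcctattaaagtc
Rbm15-201, bases 2468 to 2497 of 4343: cagaggtgatcgGGACTtgcccagcagcag
Wtap-203, bases 1340 to 1369 of 2060: tcagaatggcttGGACTcaaatgtaaatgt

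Of the 7 genes, 6 were listed in the Mettl3 table, and Mettl14 was the one that was not. The Zfp217 table also listed 6, where Mettl3 was the one missing. Both tables listed 5 of them: Wtap, Cbll1, Rbm15, Rbm15b and Zfp217. For scale, 25.2% of the 21924 protein-coding symbols in GENCODE M21 had a transcript in the Mettl3 table, 21.6% in the Zfp217 table and 16.3% in both. This background includes genes not expressed in these cells. Symbols were matched by name, so a gene listed under an older symbol counts as missing and the shares are too low. At the level of transcripts, 6 were in both tables, 2 in the Mettl3 table alone and 4 in the Zfp217 table alone. Over all transcripts, 4026 were in both tables, of 9501 in the Mettl3 table and 8120 in the Zfp217 table.

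**Figure D1:**
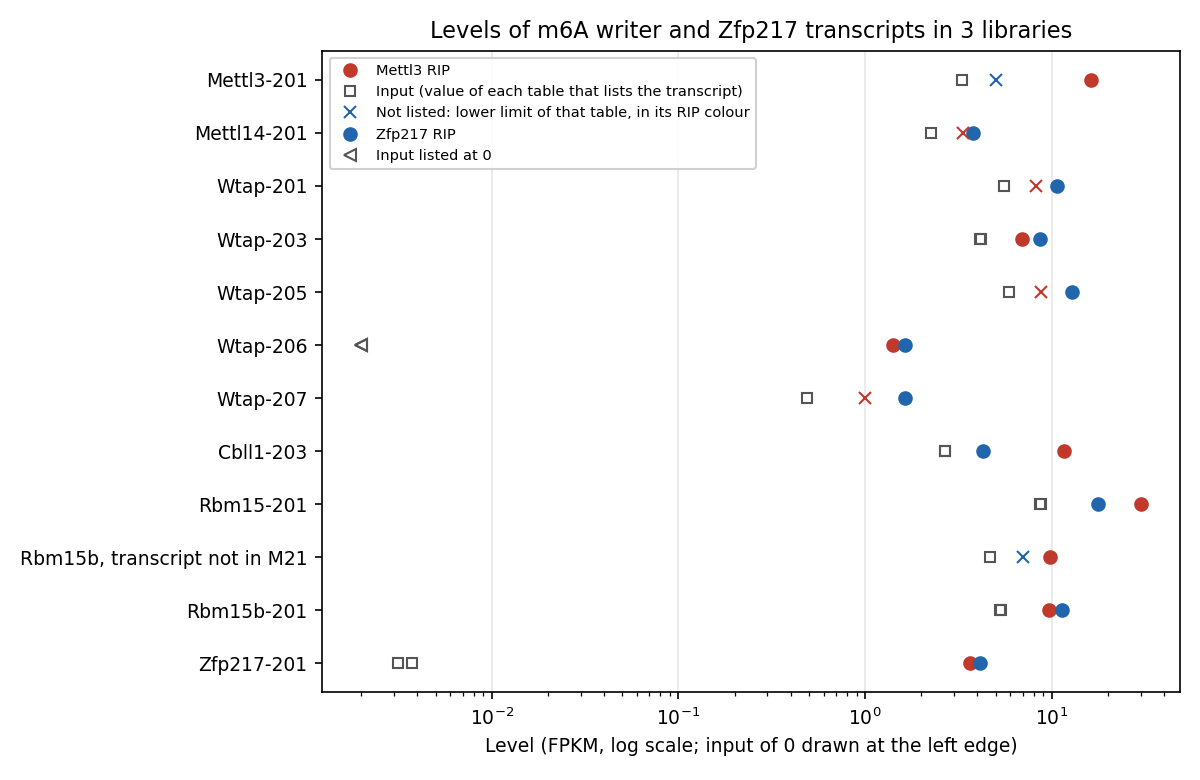
Levels of the 12 listed transcripts of the 7 genes in FPKM on a log axis, with the input as open squares, the Mettl3 RIP in red and the Zfp217 RIP in blue. A triangle marks an input of 0, drawn at the left edge, and a cross marks the level that a transcript missing from a table would have needed to pass the limits seen in that table. Mettl3-201, Cbll1-203 and Rbm15-201 have their Mettl3 RIP level furthest to the right, while of the other transcripts listed in both tables Wtap-203, Wtap-206, Rbm15b-201 and Zfp217-201 have their Zfp217 RIP level to the right, with a counting interval of the ratio that leaves out 1 for Rbm15b-201 alone.

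Mettl3, the catalytic subunit, had 1 listed transcript, Mettl3-201 (ENSMUST00000022767), the full-length mRNA of 580 residues. Its level was 3.31 FPKM in the input and 16.3 FPKM in the RIP of its own protein. That is 4.92-fold higher (3.46 to 7.20), from about 35.1 input and 287 RIP reads. The fold was above that of 96.3% of the 3725 transcripts in the table with an input of at least 1 FPKM, whose median was 2.07-fold. In the Zfp217 table no Mettl3 transcript was listed. With the input value rescaled to that table, 5.02 FPKM would have passed its 1.5-fold limit, and the Mettl3 RIP level was 3.25 times this value. In GRCm38 the gene spans 52294841 to 52305128 on the minus strand of chromosome 14, and M21 gives it 15 transcripts, of which 1 was listed.

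The last part of Mettl3-201 lies opposite Tox4, a gene on the other strand, and 366 of its 2025 bases (18.1%) are also exonic in Tox4. Whether reads were counted by strand is not given in the sources used here, so reads from this stretch may belong to either gene. Tox4 was itself in the Mettl3 table, where its RIP level of 7.57 FPKM was 1.57-fold above an input of 4.83 FPKM, and it was not in the Zfp217 table. Its part in the Mettl3 ratio was not tested.

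Mettl14, which forms the enzyme's core with Mettl3, showed the opposite listing. Mettl14-201 (ENSMUST00000029759) was at 2.26 FPKM in the input and 3.77 FPKM in the Zfp217 RIP, 1.67-fold higher (1.08 to 2.61). This lies near the lower limit of the table, and 27.3% of the 2511 transcripts with an input of at least 1 FPKM had a lower fold. Their median was 1.87-fold. In the Mettl3 table a level of 3.36 FPKM would have passed the limits seen there, which is close to the 3.77 FPKM of the Zfp217 RIP, so that being listed in one table and not the other does not show that the 2 RIP levels differed. The gene lies on chromosome 3 from 123368297 to 123386108 on the minus strand.

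Wtap, the subunit that anchors the Mettl3 and Mettl14 pair in nuclear speckles, had the most listed transcripts of the 7 genes, 2 in the Mettl3 table and 5 in the Zfp217 table. Wtap-203 (ENSMUST00000159551), with the full coding sequence, was at 4.15 FPKM in the input and 6.97 FPKM in the Mettl3 RIP, 1.68-fold higher (1.19 to 2.42). In the Zfp217 RIP it was at 8.66 FPKM against 4.19, 2.07-fold higher (1.45 to 2.98). The Zfp217 RIP level was 1.24 times that of the Mettl3 RIP, with an interval of 0.955 to 1.62 that includes 1. Unequal FPKM levels were thus not detectable for this transcript at this depth. Written as Mettl3 over Zfp217, the ratio was 0.805 (0.619 to 1.05). This interval lies below 1.10, the median of the transcripts in both tables with an input of at least 1 FPKM.

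The other full-length mRNA, Wtap-201 (ENSMUST00000007007), was listed for Zfp217 alone, with 10.7 FPKM in the RIP and 5.57 FPKM in the input, a ratio of 1.91 (1.41 to 2.64). It shares 91.1% of its bases with Wtap-203 and has 183 bases of its own. The short form Wtap-205 (ENSMUST00000160781) was also listed for Zfp217 alone, at 12.9 FPKM against 5.90, 2.19-fold higher (1.67 to 2.88), the highest RIP level of the Wtap transcripts. Had their Mettl3 RIP levels reached 8.27 FPKM (Wtap-201) and 8.76 FPKM (Wtap-205), they would have passed the limits seen in the Mettl3 table. The Zfp217 levels were 1.29 and 1.47 times these values.

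Much of Wtap-205 is not specific to a spliced mRNA. Of its 2442 bases, 1744 (71.4%) lie within introns of Wtap-203, mostly the long last exon drawn in the transcript map. In nuclear RNA, reads from unspliced Wtap would fall on the same bases, and the share of such reads was not tested. The remaining 2 transcripts were short and low. Wtap-206 (574 bases) was listed at 0 FPKM in the input, at 1.41 FPKM in the Mettl3 RIP and at 1.63 in the Zfp217 RIP. Wtap-207 (536 bases) was at 1.63 FPKM in the Zfp217 RIP against 0.489, with an interval of the ratio from 0.372 to 118 because the input held about 1.11 reads. Of their bases, 80.1% and 53.7% lie in introns of Wtap-203. The Wtap gene lies on chromosome 17 from 12966796 to 12994169 on the minus strand.

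**Figure D2:**
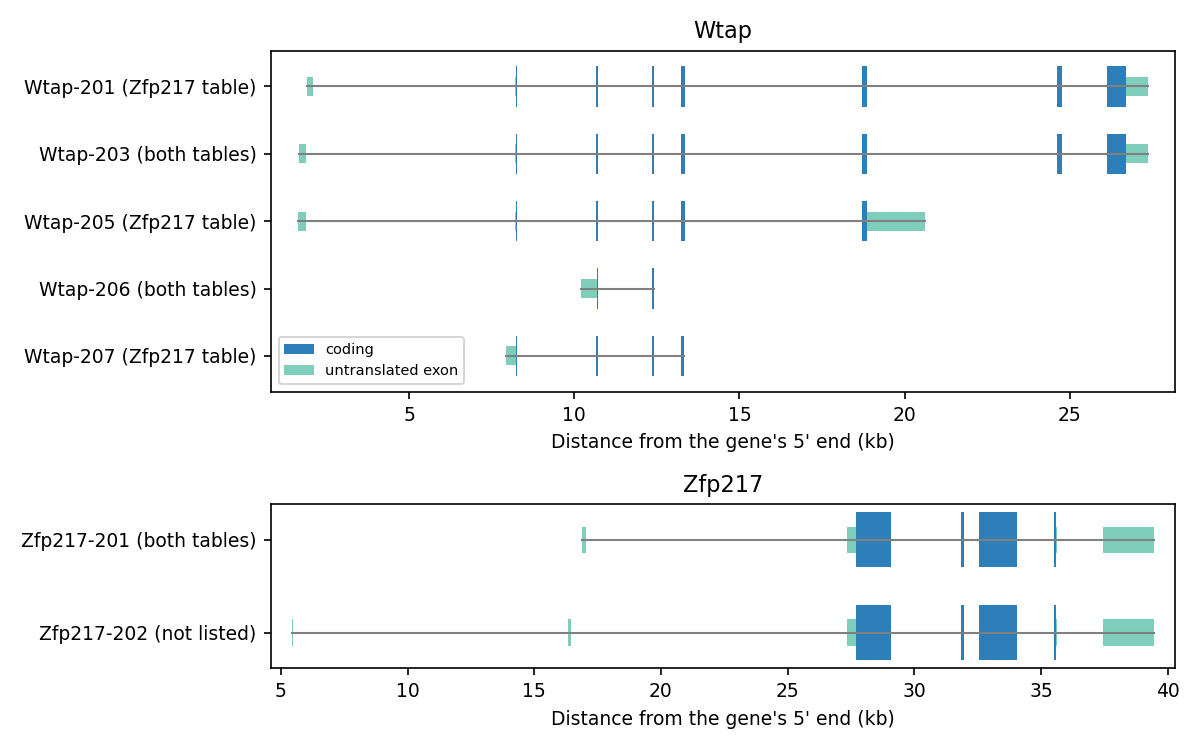
Listed transcripts of Wtap, and Zfp217-201 with the unlisted Zfp217-202, drawn by distance in kb from the 5' end of each gene in GENCODE M21, with coding parts as tall and untranslated parts as low boxes, introns as lines, and the tables that list each transcript in brackets. Wtap-205 ends in a long exon inside an intron of Wtap-203, and the Zfp217 transcripts differ visibly only at their 5' ends.

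Cbll1, the Hakai E3 ubiquitin ligase of the complex, had the largest gap between the antibodies among the 6 member transcripts listed in both tables. Cbll1-203 (ENSMUST00000101499) was at 2.67 FPKM in the input and 11.6 FPKM in the Mettl3 RIP, 4.35-fold higher (3.29 to 5.86). In the Zfp217 RIP its level was 4.29 FPKM, with 2.70 FPKM in the input, a ratio of 1.59 (1.15 to 2.23). Its fold was above that of 93.9% of the Mettl3 transcripts with an input of at least 1 FPKM and above 16.4% of those for Zfp217. The gene lies on chromosome 12 from 31484829 to 31499616 on the minus strand, and 704 bases of Cbll1-203 lie opposite exons of the antisense gene Gm29542, which neither table listed.

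Rbm15 and Rbm15b are paralogs that bind RNA and recruit the complex to its sites. Rbm15-201 (ENSMUST00000061772) had the highest input of the 12 transcripts and the highest RIP level among the members listed in each table. Rbm15-201 was at 8.68 FPKM in the input, 29.99 FPKM (28.3 to 31.8) in the Mettl3 RIP and 17.6 FPKM (16.1 to 19.3) in the Zfp217 RIP. It was 3.46-fold above the input in the Mettl3 RIP (2.98 to 4.03), with about 1174 reads behind the RIP level. In the Zfp217 RIP it was 2.01-fold higher (1.71 to 2.37), close to the middle of that table (61.3% of transcripts had a lower fold). The gene lies on chromosome 3 from 107325421 to 107333673 on the minus strand.

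Rbm15b showed the reverse order of the antibodies. Rbm15b-201 (ENSMUST00000055843), a single-exon mRNA of 6511 bases, was at 5.27 FPKM in the input and 9.72 FPKM in the Mettl3 RIP, 1.84-fold higher (1.56 to 2.18). In the Zfp217 RIP it was at 11.4 FPKM against 5.33, 2.14-fold higher (1.81 to 2.54). A second Rbm15b transcript, ENSMUST00000098424, was in the Mettl3 table alone, at 9.80 FPKM against 4.64, 2.11-fold higher. It was without a length here, so it has no interval. A level of 7.04 FPKM would have passed the limits seen in the Zfp217 table. Summed over its listed transcripts, Rbm15b was at 19.5 FPKM in the Mettl3 RIP (2 transcripts) and 11.4 FPKM in the Zfp217 RIP (1 transcript). The division of reads between the 2 transcripts was not tested. The gene lies on chromosome 9 from 106880918 to 106887428 on the minus strand, and 75 bases of Rbm15b-201 lie opposite exons of Dcaf1.

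Zfp217 mRNA was listed in both tables through Zfp217-201 (ENSMUST00000063710). Its level was 4.14 FPKM (3.51 to 4.84) in the RIP of its own protein and 3.63 FPKM (3.13 to 4.19) in the Mettl3 RIP. The intervals overlap, and the Zfp217 RIP level was 1.14 times the Mettl3 RIP level (0.915 to 1.42), so a higher recovery of this transcript by the antibody against its own protein was not detectable. The input was listed at 0.00316 and 0.00373 FPKM, which is about 0.0983 and 0.117 reads, and no fold is given. Zfp217-202, which shares nearly all of the sequence, was in neither table. Whether the near-zero input reflects Zfp217 RNA or the division of reads between these transcripts was not tested. The gene lies on chromosome 2 from 170108643 to 170148103 on the minus strand.

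The order of RIP levels differed between the antibodies. In the Mettl3 RIP, Rbm15-201 was followed by Mettl3-201 (14.5 to 18.3 FPKM), Cbll1-203 (10.5 to 12.8), Rbm15b-201 (8.94 to 10.5), Wtap-203 (upper end 8.31), Zfp217-201 and Wtap-206. The Rbm15b transcript without a length (9.80 FPKM) lay beside Rbm15b-201. The intervals of Cbll1-203 and Rbm15b-201 overlap narrowly, and those of the other neighbours down to Zfp217-201 do not. In the Zfp217 RIP, Rbm15-201 was followed by Wtap-205 (11.2 to 14.8), Rbm15b-201 (10.4 to 12.5), Wtap-201 (8.96 to 12.6) and Wtap-203 (7.14 to 10.4), where neighbours overlap. Cbll1-203 (3.52 to 5.17), Zfp217-201 and Mettl14-201 (2.92 to 4.80) followed and overlap with each other, and the short Wtap transcripts came last.

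**Figure D3:**
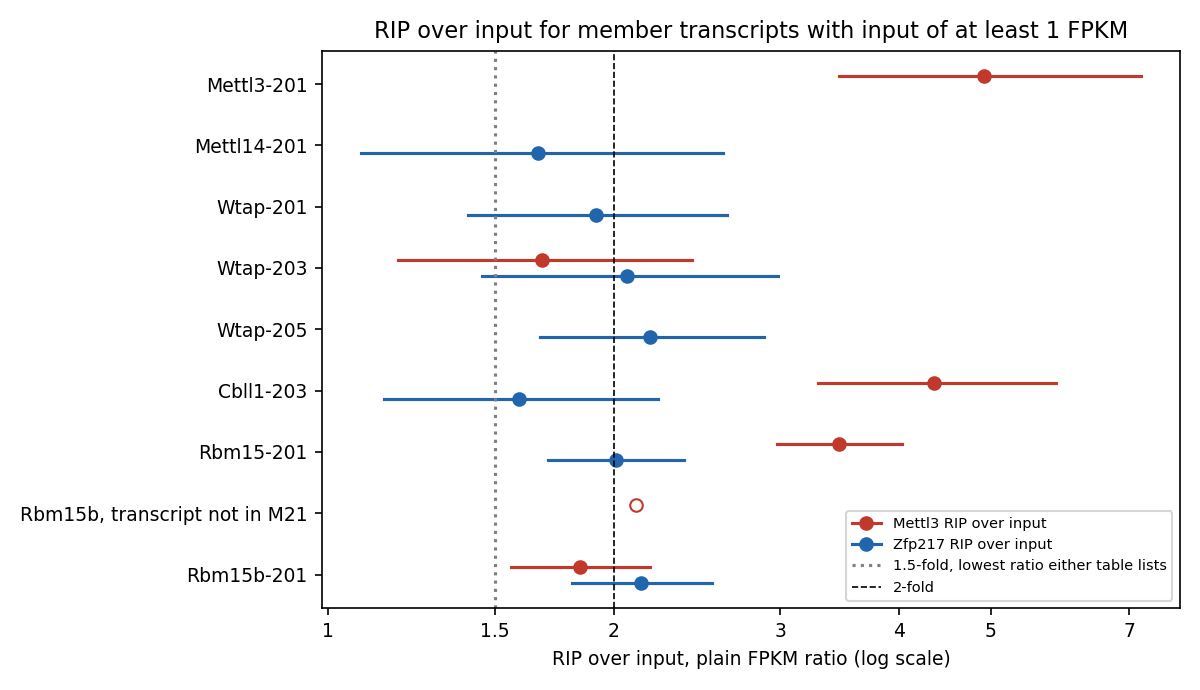
Plain ratio of RIP over input on a log axis for each member transcript with an input of at least 1 FPKM, for Mettl3 in red and Zfp217 in blue, with bars for the 95% counting interval and an open point where no interval was computed. The Mettl3 ratios of Mettl3-201, Cbll1-203 and Rbm15-201 (4.92, 4.35 and 3.46) lie beyond the upper end of every other interval shown, the highest of which is 2.98, and the Zfp217 ratios all lie between 1.59 and 2.19.

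By the rule of size, at least 2-fold higher in log2((RIP + 1)/(input + 1)) among transcripts with a mean of at least 1 FPKM, 4 of the 7 member transcripts kept in the Mettl3 table passed: Mettl3-201, Cbll1-203, Rbm15-201 and Zfp217-201. The background was 51.1% of the 6667 transcripts kept, so the members' share is near that of the table. The median log2 ratio was 1.68 for the members and 1.02 for all. For Zfp217, 2 of the 9 kept passed, Wtap-205 and Zfp217-201, against 49.1% of 5248, and the median log2 ratio was 0.90 against 0.98. Wtap-205, at a log2 ratio of 1.01, was just over the 2-fold line, and Rbm15b-201 (0.97) and Rbm15-201 (0.93) were just under it. Zfp217-201, with an input near 0, meets the mean limit through its RIP level alone, so it passes in both by construction. Among members with an input of at least 0.01 FPKM, 3 of 6 passed for Mettl3 and 1 of 8 for Zfp217. The share over all transcripts is not given for that setting. As plain ratios with an input of at least 1 FPKM, 4 of 6 were at least 2-fold higher for Mettl3 (background 54.3%) and 4 of 7 for Zfp217 (39.3%), of which Rbm15-201, at 2.01, and Wtap-203, at 2.07, are close to the line.

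Set against each other, the antibodies split the 6 transcripts listed in both tables. The Mettl3 RIP level of Cbll1-203 was 2.71 times the Zfp217 RIP level (2.19 to 3.38), and that of Rbm15-201 1.70 times (1.53 to 1.89). Both intervals lie above 1. For Rbm15b-201 the Zfp217 RIP level was 1.17 times that of Mettl3, with an interval of 1.04 to 1.33 just above 1. For Wtap-203, Zfp217-201 and Wtap-206 the Zfp217 RIP level was also the higher, by ratios of 1.24, 1.14 and 1.16, and their intervals include 1. The 2 tables were scaled separately, and dividing each RIP level by the input of its own table gave 2.74 for Cbll1-203, 1.72 for Rbm15-201, 0.861 for Rbm15b-201 and 0.813 for Wtap-203, since the input values of the tables differ by a factor of 0.989.

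Across the 1400 transcripts in both tables with an input of at least 1 FPKM, the median ratio of Mettl3 RIP over Zfp217 RIP was 1.10 (quartiles 0.877 and 1.42), and the Mettl3 level was the higher in 61.4% of them. Cbll1-203 lay above 96.6% of these transcripts and Rbm15-201 above 85.5%. Rbm15b-201 lay above 21.6% and Wtap-203 above 16.9%. By the 2-fold rule on the log2(FPKM + 1) scale, Cbll1-203 was the one member higher in the Mettl3 RIP, against 5.39% of the 4026 transcripts in both tables, and none was higher in the Zfp217 RIP, against 3.43%.

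**Figure D4:**
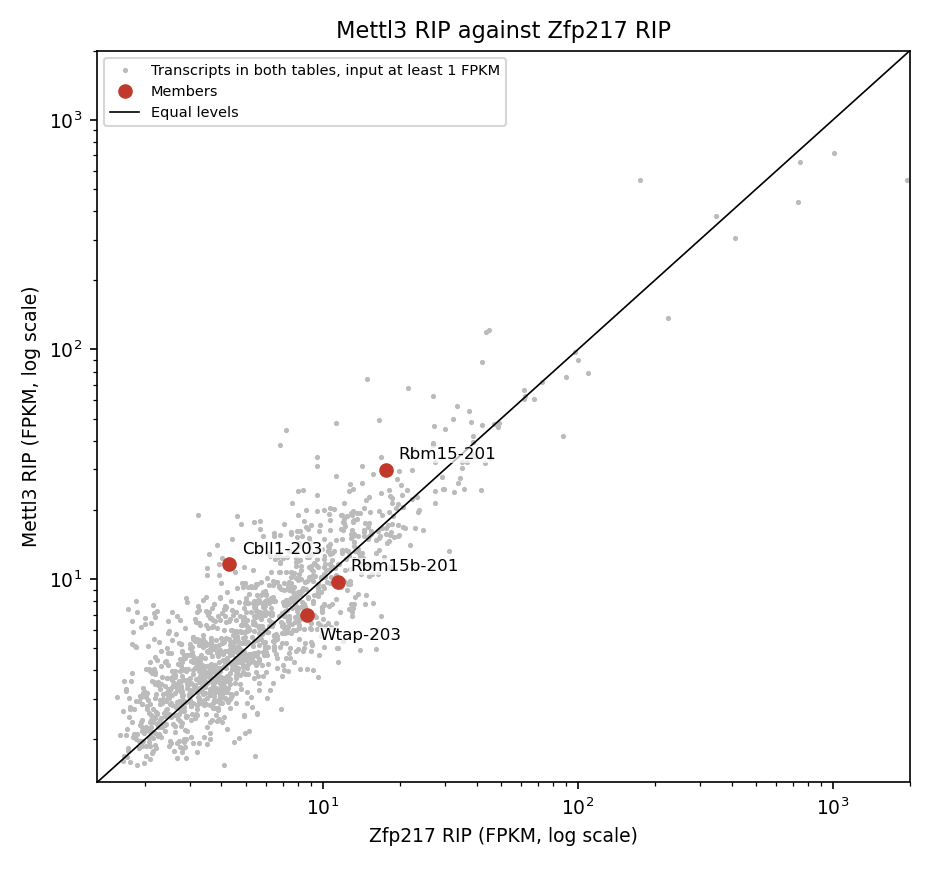
Mettl3 RIP level against Zfp217 RIP level in FPKM, both on log axes, for the 1400 transcripts in both tables with an input of at least 1 FPKM (grey) and the 4 member transcripts among them (red), with a line of equal levels. Cbll1-203 and Rbm15-201 lie above the line, and Rbm15b-201 and Wtap-203 just below it.

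The transcripts that were most like each member over the 3 libraries, by Euclidean distance in log2(FPKM + 1), were Fbxo30 (0.08), Cdc73 (0.08) and Syncrip (0.16) for Cbll1-203. For Rbm15-201 they were Tram1 (0.21), Twf1 (0.35) and Myst4 (0.37), a wider gap, so its levels had fewer close matches. For Rbm15b-201 they were 2610029G23Rik (0.10), Zfand5 (0.11) and Irf2bp2 (0.16), and for Wtap-203 Prdx4 (0.07), Zfp639 (0.11) and Lypla2 (0.12). The 3 nearest to Zfp217-201, Rptor and Dlg1 among them, were all listed at 0 FPKM in the input, as were the 3 nearest to Wtap-206.

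GGACT was present in each of the 8 searched mRNAs with a full coding sequence, from 0.46 per kb in Rbm15-201 (2 sites) to 2.43 per kb in Wtap-203 (5 sites). Mettl3-201 had 1.98 per kb (4 sites), Cbll1-203 1.28 (5 sites), Mettl14-201 1.09 (3 sites), Rbm15b-201 0.92 (6 sites) and Zfp217-201 0.70 (4 sites). Among the protein-coding transcripts of at least 300 bases in the Mettl3 table the median was 0.98 per kb (quartiles 0.57 and 1.43) and 89.1% held the motif. In the Zfp217 table the median was 1.03 per kb and 85.0% held it. Beside these densities, the ratios in the Mettl3 RIP were 4.92 for Mettl3-201, 4.35 for Cbll1-203, 3.46 for Rbm15-201, 1.84 for Rbm15b-201 and 1.68 for Wtap-203, and the relation between them was not tested. The printed coding site lies 29 bases before the end of the coding sequence in Wtap-203, 242 bases before it in Mettl3-201 and 1132 bases before it in Cbll1-203. A match to these letters is not a methylated site, and methylation was not measured here.

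Other genes of the m6A pathway were also listed. Of 8 further methyltransferase genes, 6 were in the Mettl3 table and 5 in the Zfp217 table, against 25.2% and 21.6% of all protein-coding symbols. The 8 include the writer subunits Virma and Zc3h13, and neither was in either table under the symbols searched. A Mettl16 transcript, of the enzyme that methylates U6 snRNA, had 3.47 FPKM in the Mettl3 RIP and 1.69 FPKM in the input, a ratio of 2.05. A transcript of Trmt112, the cofactor of several methyltransferases, had 3.66 FPKM in the Zfp217 RIP and 1.41 FPKM in the input, a ratio of 2.59. By the 2-fold rule 2 of 6 transcripts kept passed for Mettl3 and 5 of 7 for Zfp217, where 51.1% and 49.1% of all kept transcripts passed.

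The 13 m6A readers searched are proteins that bind RNA carrying the mark, not all of them the mark itself. Of the 13, 11 were listed for Mettl3 and 8 for Zfp217, against 25.2% and 21.6% of all protein-coding symbols. Of their kept transcripts 6 of 17 and 4 of 10 passed the rule, against 51.1% and 49.1%. Igf2bp1, which stabilises marked mRNAs, was the most abundant in the Mettl3 RIP, at 86.7 with 43.95 FPKM in the input (1.97-fold), and Ythdf2, which promotes their decay, in the Zfp217 RIP, at 13.5 against 8.18 FPKM (1.65-fold), both among transcripts with an input of at least 1 FPKM. Both erasers, the demethylases Alkbh5 (18.3 against 9.12 FPKM, 2.01-fold) and Fto (11.5 against 6.88 FPKM, 1.67-fold), were in the Mettl3 table, and neither was in the Zfp217 table. On the log2(FPKM + 1) scale neither passed the rule.

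For the supply of S-adenosylmethionine, the methyl donor, 5 of 6 genes were in the Mettl3 table and 3 in the Zfp217 table. Of all protein-coding symbols, 25.2% and 21.6% were listed. For this list 1 of 5 and 1 of 4 kept transcripts passed the rule (51.1% and 49.1% of all). Mat2a, which makes the donor, was at 55.2 FPKM in the Mettl3 RIP against 34.1 (1.62-fold). An Ahcy transcript, of the enzyme that clears the product of methylation, was 3.74-fold higher in the Zfp217 RIP (6.83 against 1.83 FPKM). Of 12 corepressor partners of Zfp217, 10 were listed for Mettl3 and 9 for Zfp217, against the same 25.2% and 21.6%. By the rule 5 of 15 transcripts passed for Mettl3 and 8 of 16 for Zfp217, against 51.1% and 49.1% of all kept. Ctbp2, a corepressor that Zfp217 binds, was at 21.3 FPKM in the Mettl3 RIP and 27.4 FPKM in the Zfp217 RIP, with 11.9 and 12.02 FPKM in the input (1.79-fold and 2.28-fold). Kdm5b, a histone demethylase, was 1.70-fold and 1.72-fold higher.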

How the data were processed

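The genome build was mm9, and the tools named were TopHat2 2.0.8, Bowtie2, Cuffdiff, Cufflinks and CASAVA 1.4, per the submitters' processing notes. What each did, and with which settings, is not stated there. The authors deposited 2 tables with FPKM of input and RIP per Ensembl transcript, and their log2 ratio (a code stands in for infinity at an input of 0), which for members with an input of at least 0.01 FPKM equals the log2 of RIP over input. Tables hold only transcripts above the limits given in the text.

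Members were found by symbol. The members and lists were chosen with earlier results of these data known. Named are all member transcripts, the 3 transcripts of each list with the highest RIP FPKM among those with an input of at least 1 FPKM (a selection of these is printed), and the 3 nearest in pattern. Ratios used a pseudocount of 1 FPKM and a mean of at least 1 FPKM, plain ratios an input of at least 0.01 FPKM. Alternatives are in the closing section.

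Read numbers came from short noncoding RNAs (100 to 300 bases). A fragment length and the depth of each library were searched so that most of their FPKM came out as whole multiples of 1 read. The shares that follow come from the same values as that search, so they are not an independent check of the read numbers. A length of 135 bases (SD 30) made 88.4% of 95 such values whole within 0.08 reads in the Mettl3 RIP, 85.7% of 91 in the Zfp217 RIP and 86.7% of 15 in the input. The estimated scaled fragments were 9300000, 6750000 and 5600000. Transcript lengths, sequences and coordinates are from GENCODE M21 (GRCm38), which is not the authors' build. Intervals of ratios are conditional binomial (Clopper-Pearson), those of levels exact Poisson. Calls and intervals of ratios were tested on simulated Poisson reads. The simulation took the estimated depths as given, used the same length for all transcripts and had no listing limits. It thus checks the calculation, not the depth estimates or the effect of the selection. Python 3.11.15, pandas 2.3.3 and scipy 1.17.1 were used.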

Additional observations from a re-analysis of the deposited data

How the results depend on the processing

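The number of member transcripts at least 2-fold higher was 4 of 7 in the Mettl3 RIP. It stayed within 1.5 times of 4 under every alternative run (3 to 5, of 5 to 8 transcripts or genes). In the Zfp217 RIP it was 2, and it was 5 with a pseudocount of 0.1 FPKM or with the plain FPKM ratio. It was 1 with an input of at least 0.01 FPKM or of at least 1 FPKM. The other table's input, an alternative chosen after seeing the data, could be used only for transcripts listed in both tables. With it the number was 1 of 5, because the passing Wtap transcript was listed for Zfp217 alone. In the Mettl3 RIP that setting likewise left out the Mettl3 transcript. No call changed among the transcripts kept under that setting. The number of transcripts with the larger level for Mettl3, 2 of 6, was 2 of 6 with a pseudocount of 0.1 FPKM and 2 of 4 with the double ratio. It was 2 of 5 genes with the transcripts listed in both tables summed. With every listed transcript summed, Rbm15b also had the larger level for Mettl3, at 19.5 FPKM against 11.4 for Zfp217. Wtap kept the larger level for Zfp217 in that sum, at 35.5 FPKM over 5 transcripts against 8.38 over 2. An unlisted transcript adds nothing to these sums, so they depend on which transcripts each table lists. No paired analysis was possible because each group has 1 library. Depth limits Wtap-206 and Wtap-207, with about 4.42 to 5.76 RIP reads, and the tables show nothing of transcripts under their limits.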
